A study of Mus musculus with 6 samples.

Results

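Cells of the mouse Achilles tendon region that held transcripts of Ly6a and Scx together were described here, and are called Ly6a+Scx+ cells. Ly6a encodes Sca-1, a surface protein of mesenchymal stem and progenitor cells and of many other cells. Scx encodes scleraxis, the transcription factor that marks the tendon lineage. The cells were chosen by their own counts: at least 2 UMIs (unique molecular identifiers, each standing for 1 captured transcript) of Ly6a, at least 1 of Scx, none of Ptprc (CD45, leukocytes), none of Cdh5 (VE-cadherin, endothelium) and under 5 of Col2a1 (cartilage collagen). A barcode first had to hold at least 1000 UMIs and 200 genes, with no more than 5% of UMIs from mitochondrial genes. The rule found 6199 cells among 63329 kept cells of 84194 barcodes. It found 151, 1556 and 1617 across the Gli1+ and 30, 1552 and 1293 across the Gli1- libraries, where each list of 3 values gives uninjured, 7 dpi (days post-injury) and 21 dpi in that order, here and in what follows. They were compared within each library with 1597 Scx-only cells (Scx at 1 or more, Ly6a at 0) and 26577 Ly6a-only cells (Ly6a at 2 or more, Scx at 0) that met the same 3 bars. Scx-only cells numbered 289, 430 and 503 across the Gli1+ and 57, 115 and 203 across the Gli1- libraries. Ly6a-only cells numbered 1245, 5148 and 4969 across the Gli1+ and 4326, 6006 and 4883 across the Gli1- libraries. Ly6a, Scx, Ptprc, Cdh5 and Col2a1 chose the cells and were not tested. A gene that travels with Ly6a or with Scx in the same cells is favoured by the rule, so part of each difference between these classes follows from how they were selected.

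In a tendon, tenocytes lie in rows between collagen fibres, and a sheath of loose connective tissue surrounds the fibres. Scleraxis acts upstream of tenomodulin (Tnmd) and of the collagen-binding proteoglycan fibromodulin (Fmod), both used as markers of the tendon lineage. Sheath and adventitial fibroblasts are instead known for Cd34, Pi16, Pdgfra and Tppp3, and cells with progenitor activity have been described in that layer. After an injury both layers take part in repair, and cartilage and bone can form within a healing tendon.

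The study sorted cells from Gli1-CreERT2; Ai9 mice, in which tamoxifen sets a permanent tdTomato mark in cells that express Gli1, the effector of hedgehog signalling. A cell that was marked stays Gli1+ after Gli1 itself is off, so the sort reads lineage and not the present transcript. Achilles tendons were taken from uninjured mice and 7 or 21 days after tenotomy with clamping, and cells were sorted by the reporter into Gli1+ and Gli1- cells. Tendons of 8 mice were pooled at each time point (24 mice in all), so each of the 6 conditions is 1 library and no condition has a replicate. Differences between time points therefore have no test. The intervals given with levels and shares are exact 95% intervals (Poisson for levels, binomial for shares) that cover counting error only.

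The libraries held 63028869 to 122925714 UMIs in kept cells, and the median kept cell held 4536 to 10240 UMIs. The label of the 2 uninjured libraries as fractions of the same mice with an equal sex distribution is not what the transcripts show. Xist, the female X-inactivation RNA, had a UMI in 57.6%, 0.0643% and 98.6% (Gli1+) and 0%, 0.129% and 98.8% (Gli1-) of Ly6a+Scx+ cells, and Y-linked genes had a UMI in 35.8%, 84.9% and 3.9% (Gli1+) and 73.3%, 86.1% and 3.09% (Gli1-). By these genes the uninjured Gli1+ cells were from both sexes, the uninjured Gli1- and both 7 dpi libraries were male, and both 21 dpi libraries were nearly all female. Time and sex thus cannot be told apart between 7 and 21 dpi, nor between uninjured and 21 dpi in Gli1-, and the Gli1+ ratios set cells of both sexes against male (7 dpi) or nearly all female (21 dpi) cells. In addition, the uninjured libraries are not shown to be 1 pool of animals. In the library labelled Gli1+ uninjured 4298 of 7516 kept cells held Ptprc, against at most 37 in each other library, and in the library labelled Gli1- uninjured 4907 of 12113 held Cdh5. Across libraries 425 barcodes recurred, 88 Ly6a+Scx+ barcodes were also kept in another library, and 4 met the rule in a pair of libraries. Keratin and other epidermal transcripts summed in Ly6a+Scx+ cells to 2789, 5635 and 1142 (Gli1+) and 5.95, 47.7 and 228 (Gli1-) CPM (UMIs of the gene per 1000000 UMIs of the summed cells). They were thus high in each Gli1+ library. Their part in the results was not tested.

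Ly6a+Scx+ cells were 2.01% and 0.248% of kept cells in the uninjured Gli1+ and Gli1- libraries and between 10.7% and 15.5% in the 4 injured ones. In full, the shares were 2.01, 15.5 and 15.1% across the Gli1+ and 0.248, 14.2 and 10.7% across the Gli1- libraries. The interval was 1.70% to 2.35% in the uninjured Gli1+ library, 0.167% to 0.353% in the uninjured Gli1- library and 14.8% to 16.2% at 7 dpi in Gli1+. The injured libraries lay above both uninjured ones, and Gli1- at 21 dpi was the lowest of the injured. A rule that asks for transcripts of a pair of genes finds more cells where cells are deep, and Ly6a+Scx+ cells were the deepest class, with median UMIs of 11971, 13943 and 13849 (Gli1+) and 10081, 16405.5 and 13358 (Gli1-). The medians of Scx-only cells were 7893, 6148 and 7769 (Gli1+) and 4507, 7147 and 8184 (Gli1-), and those of Ly6a-only cells 9486, 9893.5 and 9299 (Gli1+) and 6086.5, 10533 and 8574 (Gli1-). When every cell was thinned to 5000 UMIs and the rule applied again, the share was 1.13, 7.25 and 8.47% across the Gli1+ and 0.355, 6.56 and 6.49% across the Gli1- libraries. Thinned to 2000 UMIs it was 0.354, 1.53 and 2.04% across the Gli1+ and 0.0290, 1.40 and 1.74% across the Gli1- libraries, so the size of the share depends on depth while the injured libraries stayed above the uninjured ones. The uninjured shares also depend on the bars: of the cells free of Ptprc, Cdh5 and Col2a1, Ly6a+Scx+ cells were 5.59, 16 and 16.2% across the Gli1+ and 0.418, 17.2 and 14.1% across the Gli1- libraries. A doublet caller marked 5.30%, 14.3% and 13.2% (Gli1+) and 13.3%, 11.6% and 12.9% (Gli1-) of Ly6a+Scx+ cells, more than of Scx-only cells in every library (0.870% to 8.77%) and than of Ly6a-only cells (1.85% to 9.86%). With all marked cells removed the share was 2.02, 14.4 and 14.4% across the Gli1+ and 0.238, 13.8 and 10.3% across the Gli1- libraries.

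**Figure D1:**
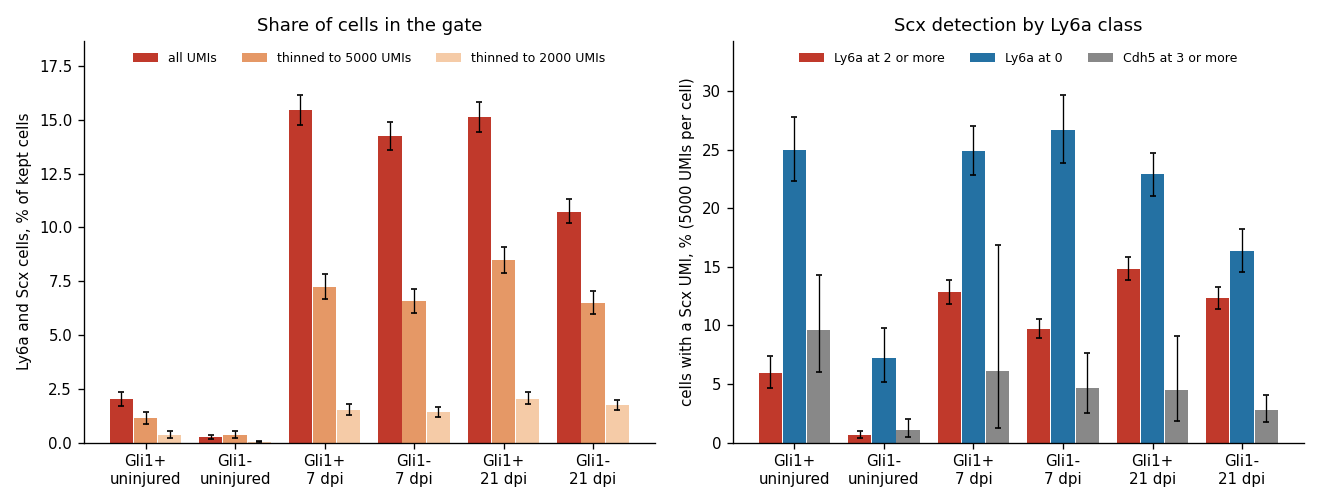
Left, Ly6a+Scx+ cells as a percent of kept cells in each of the 6 libraries, with all UMIs and with cells thinned to 5000 or 2000 UMIs. Right, the percent of cells with a Scx UMI at 5000 UMIs per cell among cells with Ly6a at 2 or more, cells with Ly6a at 0 and endothelial cells with Cdh5 at 3 or more. Bars are exact binomial intervals. The 4 injured libraries stand above both uninjured ones on the left at each depth, and on the right the Ly6a cells exceed the endothelial cells only in the injured libraries.

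Scx UMIs also occurred in cells that should lack them. At 5000 UMIs per cell, Scx had a UMI in 5.93, 12.8 and 14.8% across the Gli1+ and 0.646, 9.71 and 12.3% across the Gli1- libraries among cells with Ly6a at 2 or more. In endothelial cells (Cdh5 at 3 or more) the share was 9.59, 6.12 and 4.52% across the Gli1+ and 1.04, 4.62 and 2.77% across the Gli1- libraries, with only 49 such cells at 7 dpi in Gli1+. The Ly6a cells of both uninjured libraries were at or below the endothelial level at this equal depth, so that by this share Scx in uninjured Ly6a+Scx+ cells is not separated from free RNA. At that depth Tnmd with Fmod was found in 45.8% (Gli1+) and 21.1% (Gli1-) of uninjured Ly6a+Scx+ cells, against 9.13% and 0.909% of endothelial cells. The part of free RNA in the uninjured Ly6a+Scx+ cells was not tested. In the 4 injured libraries the share of Ly6a cells with Scx stood above the endothelial share, although the interval of the 49 endothelial cells (1.28% to 16.9%) reached past the 12.8% of Ly6a cells in that library. Not thinned, the 2 shares were 10.8, 23.2 and 24.6% across the Gli1+ and 0.689, 20.5 and 20.9% across the Gli1- libraries and, in endothelial cells, 7.04, 9.21 and 5.70% across the Gli1+ and 0.675, 6.53 and 5.54% across the Gli1- libraries. The endothelial cells were shallower in that comparison, with median depths of 5983, 6511 and 8784 (Gli1+) and 3980.5, 5579 and 8928 (Gli1-) UMIs against 9830.5, 10693 and 10204 (Gli1+) and 6104.5, 11812 and 9455.5 (Gli1-) UMIs. At 5000 UMIs per cell, cells with Ly6a at 0 held Scx more often than cells with Ly6a at 2 or more in every library, at 25, 24.9 and 22.9% across the Gli1+ and 7.21, 26.7 and 16.3% across the Gli1- libraries. Not thinned, the share in cells with Ly6a at 0 was 26.6, 26.6 and 20.9% across the Gli1+ and 3.16, 15.2 and 10.8% across the Gli1- libraries, so that the order turned in 3 of the 4 injured libraries. In unthinned cells of 12000 to 16000 UMIs the order also differed between libraries: at 7 dpi in Gli1+ Scx was found in 28.5% of cells with Ly6a and 37.2% of those at 0, and at 21 dpi in Gli1- in 32.3% and 20.5%. No order of these 2 groups is therefore read from the shares. Of the cells with Scx that met the 3 bars, 31.1, 65.9 and 66.6% across the Gli1+ and 26.8, 84.7 and 75.8% across the Gli1- libraries met the rule, and 20.5% to 53.3% did so after thinning.

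Outside the genes of the rule, the label of a tendon progenitor-like cell was read from Tnmd and Fmod. For all shares at 5000 UMIs per cell the 3 classes were formed again on the thinned counts, so they do not hold the same cells as above. At 7 dpi Ly6a+Scx+ cells then numbered 576 in place of 1556 (Gli1+) and 544 in place of 1552 (Gli1-). Scx-only cells at 7 dpi in Gli1- numbered 245 in place of 115. At 5000 UMIs per cell both genes were found together in 45.8%, 26.6% and 59.4% (Gli1+) and 21.1%, 22.4% and 52.6% (Gli1-) of Ly6a+Scx+ cells. The same pair was found in 87.4%, 49.8% and 56.9% (Gli1+) and 81.6%, 46.9% and 62.2% (Gli1-) of Scx-only cells and in 5.69%, 6.67% and 16.1% (Gli1+) and 0.274%, 4.19% and 16.9% (Gli1-) of Ly6a-only cells. Tendon markers were therefore present beyond the rule, at a share between those of the other classes except at 21 dpi in Gli1+. Nothing measured here shows whether a cell gives rise to another, and the cells are named by their genes only. The Ly6a threshold cut a continuous range: among cells with Scx at 7 dpi in Gli1+, Tnmd was 399, 227 and 130.0 CPM in cells with 1, 2 and 3 or more Ly6a UMIs (376, 241 and 1315 cells). At 21 dpi in Gli1+ the same 3 steps held 650.4, 607 and 492 CPM (308, 212 and 1405 cells). Fmod was 867, 574 and 308 and 1566, 1545 and 1263 CPM over these steps at the 2 times.

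To ask how Ly6a+Scx+ cells differed from each neighbouring class, UMIs were summed per class and tested with the quasi-likelihood test of edgeR, with p-values adjusted over all genes by Benjamini-Hochberg. A gene was called at an adjusted p below 0.05 and a log2 difference past 0.58. The main test summed both sorts of a time point and took the 3 time points as blocks (3 pools). Its sums mix the sorts unequally between classes. The uninjured pool held 151 Gli1+ and 30 Gli1- Ly6a+Scx+ cells but 1245 and 4326 Ly6a-only cells. A difference between those 2 libraries can therefore enter the class difference. A second test kept the 6 libraries as blocks, and since both sorts of a time point are labelled as the same mice its p-values may be too small. Differences are log2 values, and ± gives an approximate standard error (SE) worked back from the difference and its test statistic. Against Scx-only cells, 3 genes (0.0161% of 18594 tested) were higher and 26 (0.14%) lower over 3 pools, while over 6 libraries 377 (2.4% of 15722) were higher and 589 (3.75%) lower. Against Ly6a-only cells, 15 genes (0.0807%) were higher and 48 (0.258%) lower over 3 pools, with 461 (2.93%) higher and 975 (6.2%) lower over 6 libraries. The calls over 3 pools depended on single time points: without 7 dpi there were 0 against either class (1454 and 1667 genes at an unadjusted p below 0.05), without 21 dpi 3 and 0 (1555 and 1191), and without the uninjured pool 540 and 1140. DESeq2 on the same 9 sums called 624 and 749. Of the 29 and 63 genes called over 3 pools, 27 of the 27 that could be tested and 63 of 63 were called the same way over 6 libraries. Scx-only sums also held skeletal muscle transcripts, 332, 191 and 14.6 (Gli1+) and 1641, 702 and 17.3 (Gli1-) CPM against 9.53 to 35.3 CPM in Ly6a+Scx+ cells.

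By CPM, genes of tendon identity lay mostly between the 2 other classes. Tnmd, the tendon membrane protein, was at 295, 141 and 504 CPM across the Gli1+ and 179, 157 and 439 CPM across the Gli1- libraries in Ly6a+Scx+ cells. It was at 1007, 534 and 692 (Gli1+) and 717, 534 and 637 (Gli1-) CPM in Scx-only and 42.6, 45.7 and 106 (Gli1+) and 7.89, 47.8 and 118 (Gli1-) CPM in Ly6a-only cells. By CPM all 6 libraries had the order Scx-only, Ly6a+Scx+, Ly6a-only from high to low. At 5000 UMIs per cell the share of cells with a Tnmd UMI kept this order except at 21 dpi in Gli1+. There Tnmd was found in 61.1% of Ly6a+Scx+ and 58.1% of Scx-only cells, with overlapping intervals. The log2 difference of Ly6a+Scx+ from Scx-only cells was -1.34 ± 0.50 over 3 pools (adjusted p = 0.27) and -1.39 ± 0.36 over 6 libraries (adjusted p = 0.027), and that from Ly6a-only cells was 2.44 ± 0.52 over 3 pools (adjusted p = 0.10) and 2.31 ± 0.36 over 6 libraries (adjusted p = 0.00073). By CPM Fmod had the same order in 6 of 6 libraries. In Ly6a+Scx+ cells it was at 2723, 339.7 and 1293 CPM across the Gli1+ and 1372, 299 and 1233 CPM across the Gli1- libraries. At 5000 UMIs per cell the share with Fmod also kept the order except at 21 dpi in Gli1+. There Fmod was found in 86.2% of Ly6a+Scx+ and 85.4% of Scx-only cells, with overlapping intervals. Its log2 difference was -1.39 ± 0.47 over 6 libraries (adjusted p = 0.076) from Scx-only cells, which did not pass, and 2.54 ± 0.48 over 6 libraries (adjusted p = 0.0029) from Ly6a-only cells. Over the list of 12 tendon genes the median log2 difference from Scx-only cells was -1.24 over 6 libraries, against 0.02 for all genes, and 10 of 12 were lower in every library. 3 of them were called lower and none higher: the tendon transcription factor Mkx (-1.54), Tnmd and the matrix protein Cilp2 (-1.69). The median from Ly6a-only cells was 2.05, against -0.04 for all genes. 9 of 12 were called higher and none lower, among them the matrix proteins Thbs4 (1.99), Comp (1.57), Chad (2.82), Kera (2.42) and Col11a1 (2.11). None of the 12 was called over 3 pools, where the medians were -1.14 and 2.09. Egr1, an immediate-early factor that also acts in tendon, was the exception in direction, with -0.45 from Ly6a-only cells and lower in 6 of 6 libraries.

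Most sheath, stem and adventitial markers ran the opposite way. Pi16, a peptidase inhibitor of adventitial fibroblasts, was at 106, 101 and 239.8 CPM across the Gli1+ and 110.1, 112 and 289.7 CPM across the Gli1- libraries in Ly6a+Scx+ cells. In Scx-only cells it was at 25.8 to 72.9 CPM and in Ly6a-only cells at 234 to 613 CPM. In these sums Ly6a-only cells were highest and Scx-only cells lowest in each library. At 5000 UMIs per cell the share of cells with a Pi16 UMI had the same order in 5 libraries but not in the uninjured Gli1- library, where it was 28.9% of 38 Scx-only and 21.1% of 19 Ly6a+Scx+ cells. The log2 difference was 2.19 ± 0.18 over 3 pools (adjusted p = 0.022) and 2.09 ± 0.17 over 6 libraries (adjusted p = 5.0e-05) from Scx-only cells. From Ly6a-only cells it was -1.46 ± 0.17 over 3 pools (adjusted p = 0.035) and -1.47 ± 0.15 over 6 libraries (adjusted p = 4.1e-05). Cd34, a sialomucin of progenitor, adventitial and endothelial cells, was at 301, 97.3 and 121 CPM across the Gli1+ and 286, 125 and 128 CPM across the Gli1- libraries in Ly6a+Scx+ cells and at 35.9 to 53.2 CPM in Scx-only cells. It was higher than in Scx-only cells in 6 of 6 libraries, with a log2 difference of 1.93 ± 0.23 over 3 pools (adjusted p = 0.043) and 1.80 ± 0.18 over 6 libraries (adjusted p = 9.6e-05). From Ly6a-only cells Cd34 differed by -1.09 ± 0.16 over 6 libraries (adjusted p = 0.00043) and was lower in 6 of 6. Of the 14 genes of the list, 11 were called higher than in Scx-only cells over 6 libraries and none lower, with a median of 1.27. They included Ly6c1, a relative of Ly6a in the same gene family (3.28, with near-identical relatives among which counting may divide reads), the complement inhibitor Cd55 (1.77), the stromal glycoprotein Cd248 (1.65) and the PDGF receptor Pdgfra (1.24). Against Ly6a-only cells 7 were called lower and none higher, with a median of -0.85. Dpp4, also of this list, was an exception in the uninjured libraries. At 5000 UMIs per cell it was found there in 37.7% (Gli1+) and 21.1% (Gli1-) of Scx-only cells. In Ly6a+Scx+ cells these shares were 16.7% and 10.5%. At 7 dpi Dpp4 was found in 2.83% (Gli1+) and 3.27% (Gli1-) of Scx-only and 2.78% and 4.78% of Ly6a+Scx+ cells. Tppp3, a marker of tendon sheath cells, was at 174, 60.7 and 60.0 CPM across the Gli1+ and 229, 70.0 and 72 CPM across the Gli1- libraries and differed by 0.76 from Scx-only and -1.0 from Ly6a-only cells, called in both tests over 6 libraries. Over 3 pools the calls in this list were Pi16 and Cd34 against Scx-only and Pi16 against Ly6a-only cells. Prg4, lubricin of the gliding surface, varied widely between libraries, at 5469, 379 and 287 CPM across the Gli1+ and 1497, 501 and 401 CPM across the Gli1- libraries, and passed neither test.

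**Figure D2:**
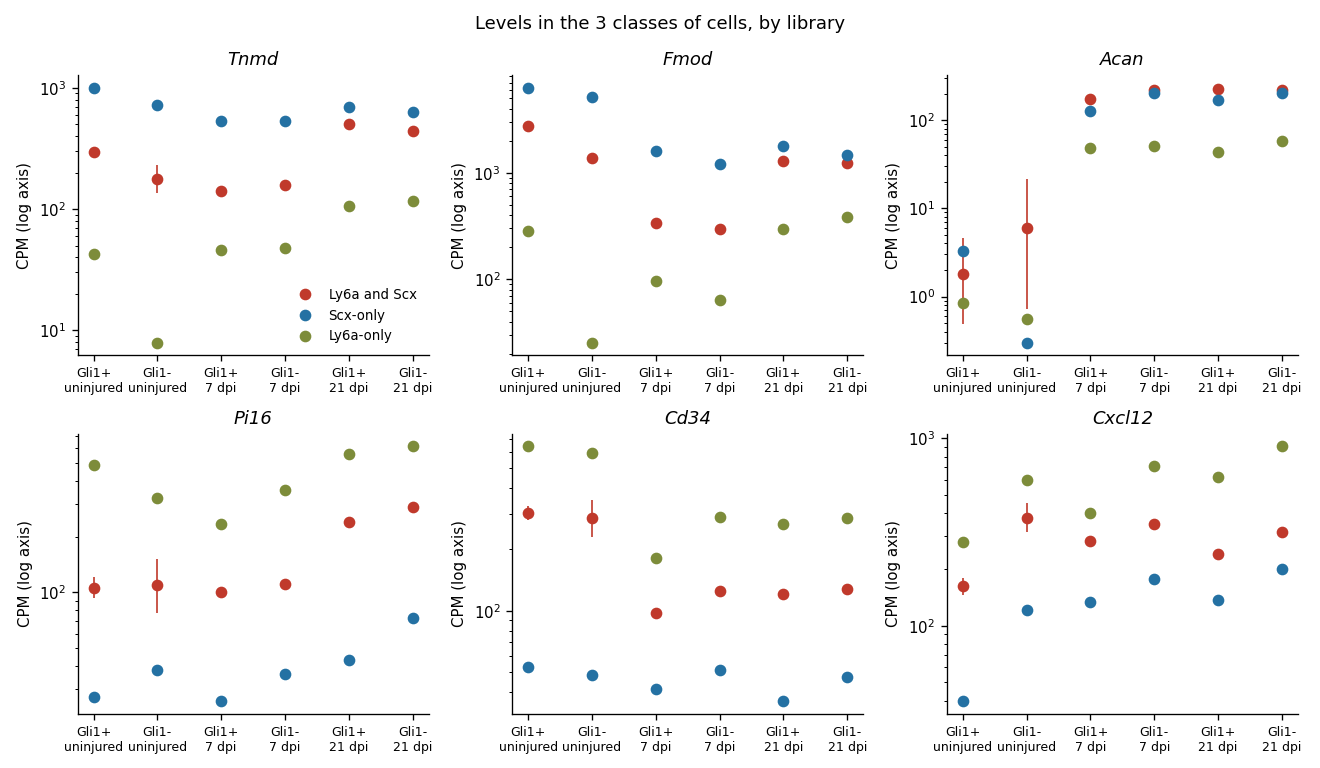
CPM on a log axis of Tnmd, Fmod, Acan, Pi16, Cd34 and Cxcl12 in the 6 libraries, for Ly6a+Scx+, Scx-only and Ly6a-only cells, with the exact Poisson interval on the Ly6a+Scx+ cells and values below 0.3 drawn at 0.3. Tnmd and Fmod were highest in Scx-only cells in each library, while Pi16, Cd34 and Cxcl12 were highest in Ly6a-only cells.

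Inflammatory genes followed the sheath pattern. Cxcl12, the stromal chemokine, was at 163, 284 and 242 CPM across the Gli1+ and 378, 351 and 318 CPM across the Gli1- libraries in Ly6a+Scx+ cells, above Scx-only cells (39.5 to 200.4 CPM) and below Ly6a-only cells (279.9 to 906 CPM) in 6 of 6 libraries. Its differences were 1.24 ± 0.16 over 6 libraries (adjusted p = 0.00039) and -0.97 ± 0.15 over 6 libraries (adjusted p = 0.00066). Complement C3 was at 425, 120.5 and 185 CPM across the Gli1+ and 458, 182 and 253 CPM across the Gli1- libraries and differed by 1.16 and -1.14. Against Scx-only cells 9 of 16 genes were called higher over 6 libraries, none lower and none over 3 pools, with a median of 1.13. Besides Cxcl12 and C3 these were the monocyte and neutrophil chemokines Ccl2 (1.1), Ccl7 (1.45) and Cxcl1 (1.08), the acute-phase protein Saa3 (1.33), complement C4b (1.63), the alarmin Il33 (1.51) and the hyaluronan synthase Has1 (1.79). Against Ly6a-only cells 6 were called lower and none higher, with a median of -0.61. Of these, Ccl11, the eosinophil chemokine, was furthest, at 24.0, 21.9 and 6.87 CPM across the Gli1+ and 503, 39.9 and 15.1 CPM across the Gli1- libraries in Ly6a+Scx+ cells against 329.8, 67.3 and 49.9 (Gli1+) and 1549, 178 and 72.1 (Gli1-) CPM in Ly6a-only cells.

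Matrix genes showed smaller differences, and a few of them were higher in Ly6a+Scx+ cells than in both other classes. Col3a1, the collagen of early repair, was at 1689, 11408 and 12759 CPM across the Gli1+ and 5966, 14843 and 12733 CPM across the Gli1- libraries and was above Scx-only cells by 1.29 ± 0.25 over 6 libraries (adjusted p = 0.0059), with 0.12 from Ly6a-only cells. Col5a1 (0.98), Col14a1 (1.19) and the proteoglycan Lum (1.02) were also called above Scx-only cells, and none of the 19 fibrillar matrix genes was called below them. Col12a1 (1.25), the crosslinking enzyme Lox (1.0), Bgn (0.59) and Sparc (0.73) were called above Ly6a-only cells. The list's medians were 0.44 and 0.36, and 0 of its genes were called over 3 pools against either class. The proteoglycan biglycan (Bgn) was at 1315, 2553 and 3279.6 CPM across the Gli1+ and 1667, 3144 and 3681 CPM across the Gli1- libraries in Ly6a+Scx+ cells, at 935, 2231 and 2594 (Gli1+) and 1447, 2589.7 and 2991 (Gli1-) CPM in Scx-only and at 791, 2153 and 2044 (Gli1+) and 682, 2888 and 2629 (Gli1-) CPM in Ly6a-only cells. Bgn was thus highest in Ly6a+Scx+ cells in 6 of 6 libraries. Col5a2, the collagen-modifying enzyme subunit P4hb, the matrix protein Tgfbi and the myofibroblast membrane protein Lrrc15 were likewise highest there in 6 of 6 libraries. For Lrrc15 the uninjured Gli1- value rests on 7 UMIs, 6 of them in 1 cell. Tgfbi was at 382, 293 and 244 CPM across the Gli1+ and 271, 352 and 229 CPM across the Gli1- libraries, and its differences were 0.81 ± 0.19 over 6 libraries (adjusted p = 0.016) from Scx-only and 0.46 ± 0.18 over 6 libraries (adjusted p = 0.099) from Ly6a-only cells, so that Tgfbi passed against the former only. These 5 were picked for their levels after the values were seen, and the share of all genes with this pattern is not given.

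Cartilage and bone genes were mostly low. Acan, the large cartilage proteoglycan, was at 1.81, 175 and 228 CPM across the Gli1+ and 5.95, 220.2 and 219 CPM across the Gli1- libraries in Ly6a+Scx+ cells, a few UMIs in the uninjured libraries. In the injured libraries the level was above that of Ly6a-only cells, at 44.0 to 57.6 CPM, and near that of Scx-only cells, at 127 to 204 CPM. Its difference from Ly6a-only cells was 2.13 ± 0.14 over 3 pools (adjusted p = 0.010) and 2.10 ± 0.13 over 6 libraries (adjusted p = 9.1e-07). From Scx-only cells it was 0.36 ± 0.13 over 6 libraries (adjusted p = 0.093). At 5000 UMIs per cell a UMI of Acan was found in 0%, 38.9% and 44.2% (Gli1+) and 0%, 40.3% and 42.6% (Gli1-) of Ly6a+Scx+ cells. In endothelial cells, which should lack it, the share was 0%, 16.3% and 4.52% (Gli1+) and 0%, 11.6% and 7.85% (Gli1-), so this background was also higher after injury. Sox9, the master factor of chondrocytes, was at 40.3, 100.5 and 94.6 CPM across the Gli1+ and 26.8, 105 and 94.2 CPM across the Gli1- libraries and passed neither test (0.19 and 0.40). The list of 13 had 1 gene called above Scx-only cells over 6 libraries (Tnfaip6, a hyaluronan-binding protein induced by inflammation, 0.88) and 3 called below (Col11a2, Matn3 and Matn4), with a median of -0.16. From Ly6a-only cells 6 were called higher and Tnfaip6 lower, with a median of 0.65. Of the bone list, Enpp1, which makes the mineralization inhibitor pyrophosphate, was called above Ly6a-only cells over 3 pools, at 68.9, 91.6 and 95.9 CPM across the Gli1+ and 86.3, 123 and 116 CPM across the Gli1- libraries in Ly6a+Scx+ cells and 19.4 to 48.2 CPM of Ly6a-only cells. Its difference was 1.61 ± 0.13 over 3 pools (adjusted p = 0.013) and 1.59 ± 0.11 over 6 libraries (adjusted p = 2.9e-06). Over 6 libraries 4 of 12 tested bone genes were called above Ly6a-only cells, including osteopontin Spp1 (2.48) and the collagenase Mmp13 (1.17), and 3 below Scx-only cells (Sp7, Mmp13 and the pyrophosphate transporter Ank). In uninjured Gli1+ Ly6a+Scx+ cells 647 of 974 UMIs of Spp1 lay in 1 cell, at 441 CPM with and 150 CPM without it. In uninjured Gli1- 113 of 233 lay in 1 cell. Runx2, the osteoblast factor, passed neither test (-0.45 and 0.28). The uninjured Gli1- values of this list are those of very few cells: the deepest of the 30 cells gave 11.7% of their UMIs and 462 of 466 UMIs of osteocalcin (Bglap), which was at 1387 CPM with that cell and at 13.5 CPM without it. That cell also gave 82 of 84 UMIs of Ibsp and 3630 of 5985 of Col1a1.

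Wound repair and myofibroblast genes separated Ly6a+Scx+ from Ly6a-only cells but hardly from Scx-only cells. Tnn, tenascin-W, was at 6.79, 426 and 247 CPM across the Gli1+ and 116, 571 and 260.2 CPM across the Gli1- libraries in Ly6a+Scx+ cells, and all 39 UMIs behind the uninjured Gli1- value lay in 1 cell. In Ly6a-only cells it was at 3.19, 258 and 74.3 (Gli1+) and 0.623, 229 and 103 (Gli1-) CPM, a difference of 1.77 ± 0.49 over 6 libraries (adjusted p = 0.023). Cthrc1, a secreted protein of activated fibroblasts, was at 58.0, 1066 and 1239.5 CPM across the Gli1+ and 220.3, 1089 and 1066 CPM across the Gli1- libraries and differed from Ly6a-only cells by 1.70 ± 0.34 over 6 libraries (adjusted p = 0.0042). With Aspn, Thbs1, Thbs2, Ccn2 and Timp1 these made 7 of 17 genes called higher and none lower, with a median of 0.68 and higher in every library for 10 of 17. Against Scx-only cells the median was 0.09, and Ccn2, a target of mechanical signalling, was the 1 gene called, at -0.85. Acta2, smooth muscle actin, passed neither test, with -0.42 and 0.61. 0 genes of this list were called over 3 pools.

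Among signalling genes, hedgehog genes were lower in part and most BMP, TGF beta and Gs genes were not called. Gli1 itself was near 0, at 4.98, 1.05 and 1.65 CPM across the Gli1+ and 0, 1.07 and 1.32 CPM across the Gli1- libraries in Ly6a+Scx+ cells, in cells of either sort. Gli1 (-1.34) and Hhip (-1.60), which hedgehog signalling induces, were among the 3 of 9 hedgehog genes called below Ly6a-only cells over 6 libraries, as were Hhip (-2.09) and Gli2 (-0.69) below Scx-only cells. None was called over 3 pools. The median of the 9 was -0.52 from Scx-only and -0.33 from Ly6a-only cells. Bmp5, a bone morphogenetic protein, was called below Scx-only cells over 3 pools, at 22.2, 11.2 and 6.79 CPM across the Gli1+ and 50.6, 12.9 and 10.8 CPM across the Gli1- libraries against 144, 63.9 and 27.7 (Gli1+) and 152, 38.6 and 21.4 (Gli1-) CPM, a difference of -2.02 ± 0.23 over 3 pools (adjusted p = 0.032) and -1.98 ± 0.23 over 6 libraries (adjusted p = 0.00020). Of the 22 BMP and TGF beta genes, Tgfbi was called above and Bmp5 and the BMP target Id1 (-0.93) below Scx-only cells over 6 libraries. Tgfb3 (0.68) and the activin subunit Inhba (0.88) were called above, and Bmp4 (-0.65) and Tgfbr2 (-0.65) below, Ly6a-only cells. Beside the 2.4% higher and 3.75% lower than Scx-only and the 2.93% higher and 6.2% lower than Ly6a-only among all genes, 1 or 2 of 22 is near the background. Gnas, the stimulatory G protein subunit that the study manipulated elsewhere, was at 1316, 1229 and 1409.7 CPM across the Gli1+ and 1089.5, 1260.1 and 1365 CPM across the Gli1- libraries and passed neither test (0.18 and -0.12). Of 22 genes of Gs, PKA and CREB signalling, 1 was called below each class over 6 libraries, Adcy7 (-0.59) against Scx-only and the PKA anchor Akap12 (-1.13) against Ly6a-only cells, which is near the 3.75% and 6.2% of all genes, and none was called over 3 pools. Their medians were 0.00 in both tests. Among 11 growth and imprinted genes, Meg3 (0.59) was called above Scx-only and Dlk1 (-1.53) below Ly6a-only cells over 6 libraries, and none over 3 pools. With 2.4% and 6.2% of all genes called in these directions, 1 of 11 is no result about the list.

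**Figure D3:**
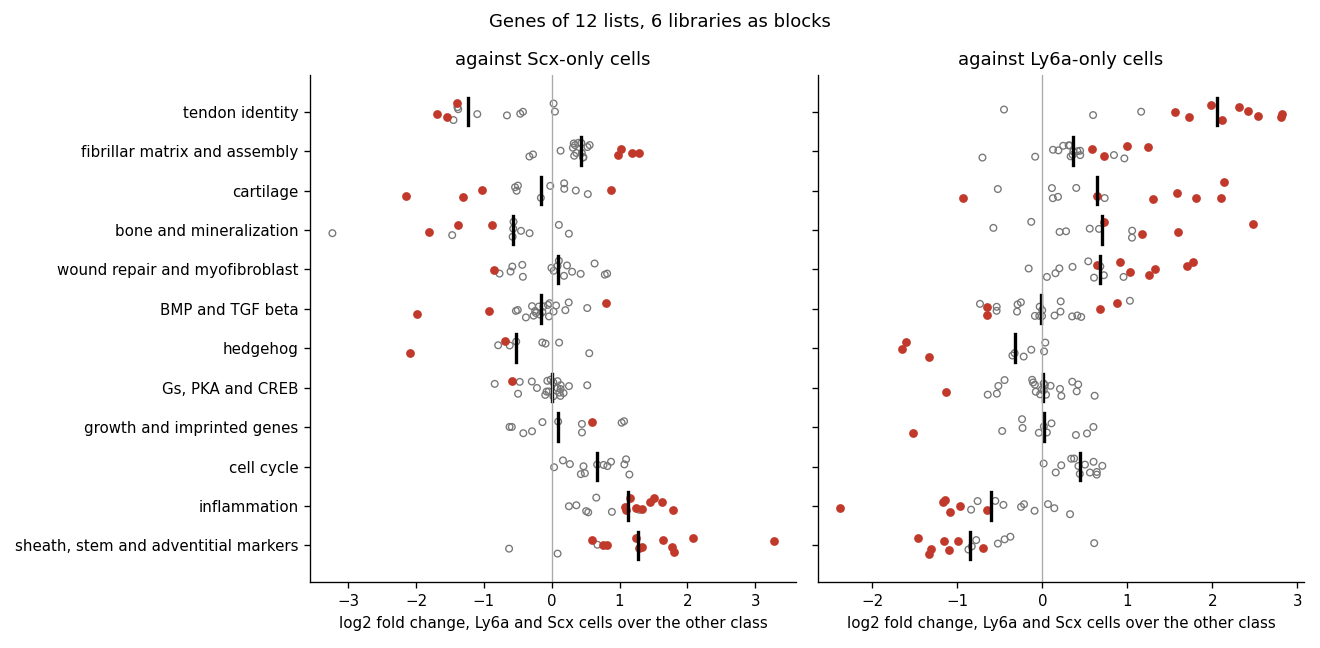
Log2 difference of Ly6a+Scx+ cells from Scx-only cells and from Ly6a-only cells for each gene of 12 lists, from the test over 6 libraries. Filled red points were called and bars are list medians. Tendon identity lies below 0 in the comparison with Scx-only cells (median -1.24) and above 0 in that with Ly6a-only cells (2.05), and the sheath list lies on the opposite sides (1.27 and -0.85).

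Outside the lists, genes called over 3 pools were named where they reached 50 CPM and had the same direction in every library. The interferon-induced Ifi27l2a was called above Scx-only cells, by 1.03 ± 0.11 over 3 pools (adjusted p = 0.031) and 1.01 ± 0.13 over 6 libraries (adjusted p = 0.00063), and at 157, 156 and 33.3 CPM across the Gli1+ and 191, 169.6 and 46.2 CPM across the Gli1- libraries in Ly6a+Scx+ cells was nonetheless below Ly6a-only cells (89.0 to 421 CPM) in each library. The diacylglycerol kinase Dgkb was called below Scx-only cells, at 16.8, 11.5 and 3.62 CPM across the Gli1+ and 41.7, 11.2 and 5.48 CPM across the Gli1- libraries against 141, 67.6 and 30.5 (Gli1+) and 86.6, 102 and 41.8 (Gli1-) CPM, a difference of -2.67 ± 0.24 over 3 pools (adjusted p = 0.022) and -2.71 ± 0.23 over 6 libraries (adjusted p = 5.0e-05). The axon guidance gene Ntng1 (-2.58 over 3 pools), the kinase Dapk2 (-2.48), Crispld1 (-2.38), the integrin Itga8 (-2.33), Frmd4b (-1.18) and Etl4 (-0.76) were lower too. Each of these 7 was lower in 6 of 6 libraries. With the rule on cells thinned to 5000 UMIs, 5 of the 29 genes called against Scx-only cells were called the same way. The 26 of them that could be tested there kept their sign. Above Ly6a-only cells stood C1qtnf3, a secreted C1q-related protein, at 19, 656 and 648 CPM across the Gli1+ and 50.6, 912 and 576 CPM across the Gli1- libraries against 18.3, 224 and 176 (Gli1+) and 1.59, 219 and 177 (Gli1-) CPM, a difference of 1.84 ± 0.15 over 3 pools (adjusted p = 0.013) and 1.78 ± 0.32 over 6 libraries (adjusted p = 0.0021). Rgs3, an inhibitor of G protein signalling (1.08 over 3 pools), the TWEAK receptor Tnfrsf12a (1.06), the chondroitin synthase Chsy3 (0.94) and the growth factor Pdgfc (0.92) were also called higher. The 10 genes named as lower than in Ly6a-only cells were the transporter Abca8a (-2.26), lipoprotein lipase Lpl (-1.83), the actin-severing gelsolin Gsn (-1.63), angiotensin-converting enzyme Ace (-1.70), the neurotrophin receptor Ntrk2 (-1.57), adrenomedullin Adm (-1.51), Abca8b (-1.71), Sned1 (-1.84), Tmeff2 (-1.89) and AW112010 (-2.54). Each was lower in 6 of 6 libraries. Gsn was the most abundant of them, at 5032, 526 and 934 CPM across the Gli1+ and 8163, 1002 and 1211 CPM across the Gli1- libraries in Ly6a+Scx+ cells against 11286, 1168 and 2618 (Gli1+) and 21267, 3448 and 3771 (Gli1-) CPM.

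Ly6a+Scx+ cells varied among themselves with their own Scx count. At 7 dpi in Gli1+, Tnmd was 80.6, 146 and 259 CPM in cells with 1, 2 to 3 and 4 or more Scx UMIs (810, 444 and 302 cells). In Gli1- at 7 dpi it was 90.4, 164 and 274 CPM, and at 21 dpi 327, 449 and 765 CPM (Gli1+) and 340.1, 449 and 606 CPM (Gli1-). Fmod stepped up in the same way in these 4 libraries, for example 935, 1246 and 1763 CPM at 21 dpi in Gli1+. Pi16 stepped down, at 130.1, 90.8 and 55.6 and 169, 70.6 and 46.5 CPM at 7 dpi and 337, 199.8 and 159 and 361, 288 and 163 CPM at 21 dpi in Gli1+ and Gli1-. Thbs4 stepped up and Tppp3 down in these 4 libraries, but other genes did not all follow. At 21 dpi Mkx was 24.7, 29.6 and 25.1 (Gli1+) and 20.6, 22.3 and 20.6 (Gli1-) CPM. Comp was 638, 782 and 778 (Gli1+) and 756, 981 and 831 (Gli1-) CPM at 21 dpi. The fibroblast gene Dpt was 439, 313 and 338 CPM at 7 dpi in Gli1-. Cells with more Scx UMIs were deeper, with median UMIs of 12586.5, 14967.5 and 16502 at 7 dpi in Gli1+, and CPM within these steps are not adjusted for that. UMIs of tendon and sheath markers were found in the same cells: at 5000 UMIs, Fmod and Pi16 were both detected in 9.72%, 15.3% and 35.4% (Gli1+) and 5.26%, 11.8% and 34.9% (Gli1-) of Ly6a+Scx+ cells, and Tnmd and Pi16 in 4.17%, 8.51% and 24.5% (Gli1+) and 5.26%, 7.54% and 24.3% (Gli1-). Endothelial cells at the same depth held Fmod in 17.4%, 30.6% and 16.8% (Gli1+) and 5.06%, 16.2% and 25.6% (Gli1-) and Pi16 in 2.28%, 10.2% and 9.68% (Gli1+) and 12.2%, 17.5% and 12.1% (Gli1-). Both were detected together in 0.457%, 6.12% and 2.58% (Gli1+) and 0.390%, 3.63% and 4.16% (Gli1-) of endothelial cells, and Tnmd with Pi16 in 0.457%, 0% and 1.94% (Gli1+) and 0.130%, 1.65% and 1.96% (Gli1-). Both pairs were more frequent in Ly6a+Scx+ than in endothelial cells in each library, but at 7 dpi in Gli1+ the interval for Fmod and Pi16 in 49 endothelial cells (1.28% to 16.9%) reached past the 15.3% of Ly6a+Scx+ cells, and in the uninjured Gli1- library each pair was seen in 1 Ly6a+Scx+ cell. The neighbouring classes held these pairs too: Fmod and Pi16 were detected together in 6.88%, 6.60% and 14.4% (Gli1+) and 26.3%, 9.80% and 17.0% (Gli1-) of Scx-only and 5.34%, 10.8% and 21.6% (Gli1+) and 1.34%, 7.81% and 27% (Gli1-) of Ly6a-only cells. Tnmd and Pi16 were detected together in 6.07%, 5.66% and 9.51% (Gli1+) and 23.7%, 6.94% and 12% (Gli1-) of Scx-only and 2.98%, 5.03% and 13.4% (Gli1+) and 0.651%, 5.95% and 13.8% (Gli1-) of Ly6a-only cells. Scx-only cells thus had the higher share of both pairs in the uninjured Gli1- library and of Tnmd with Pi16 in the uninjured Gli1+ library, on few cells. At 21 dpi Ly6a+Scx+ cells were highest for both pairs in either sort. At 21 dpi Tnmd was found in 59.7% of Gli1+ cells with Pi16 and 62.1% of those without, and in 56.9% and 52.5% of Gli1- cells. With and without Pdgfra, Tnmd was found in 50.4% and 67.4% of Gli1+ and 43.4% and 61.1% of Gli1- cells at 21 dpi. At 7 dpi these shares were 35.7% and 34.7% (Gli1+) and 25.1% and 35.9% (Gli1-). Pi16 was found less often in cells with Tnn, at 7 dpi in 21.1% of Gli1+ cells with Tnn and 37.2% of those without. The same 2 shares were 20.6% and 37.3% in Gli1- at 7 dpi, and at 21 dpi 32.3% and 45.4% in Gli1+ and 34.0% and 47.8% in Gli1-. With and without Acan, Pi16 was found in 22.3% and 32.1% (Gli1+) and 17.8% and 33.2% (Gli1-) of cells at 7 dpi. At 21 dpi these shares were 31.5% and 48.8% (Gli1+) and 37.8% and 46.4% (Gli1-). Tnn had a UMI in 0%, 36.7% and 3.87% (Gli1+) and 0.519%, 24.1% and 9.01% (Gli1-) of endothelial cells at that depth, and the part of free RNA in these shares was not tested. The doublet caller marked 5.30% to 14.3% of these cells, and the part of doublets in the shares of cells with both kinds of marker was not tested. Xist and a Y-linked gene were found together in 7 of 151 Ly6a+Scx+ cells of the uninjured Gli1+ library (4.64%, 1.88% to 9.32%), against 1.73% of Scx-only and 2.57% of Ly6a-only cells. Among cells of 5000 to 15000 UMIs the 3 shares were close, at 1.96%, 1.92% and 2.05%. At 21 dpi in Gli1+ they were 3.83%, 2.98% and 2.19% at all depths and 2.96%, 3.05% and 1.96% in cells of 5000 to 15000 UMIs, and in Gli1- 3.09%, 1.97% and 1.70% and 2.42%, 3.31% and 1.83%.

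**Figure D4:**
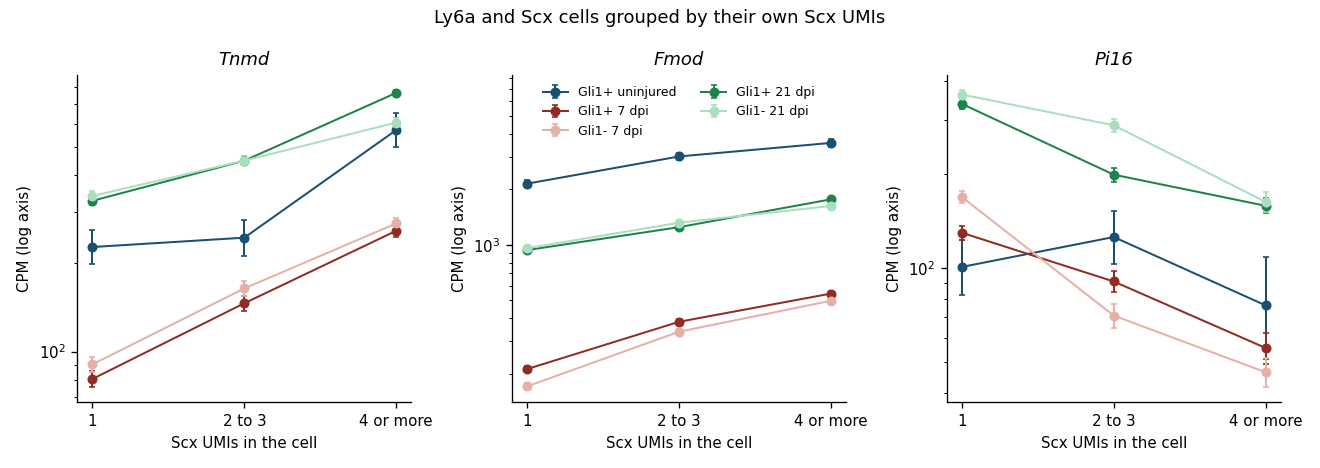
CPM on a log axis of Tnmd, Fmod and Pi16 in Ly6a+Scx+ cells grouped by their own Scx UMIs (1, 2 to 3, 4 or more), for 5 libraries, with the uninjured Gli1- library of 30 cells left out. Tnmd and Fmod step up and Pi16 steps down with the Scx count in the 4 injured libraries.

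To compare Ly6a+Scx+ cells after injury with those before it, CPM at 7 and 21 dpi were set against the uninjured library of the same sort. With 1 library per condition there is no test, and a gene was named only where the log2 ratio passed 1 the same way in both sorts and either level reached 50 CPM. At 7 dpi 305 genes (6.85% of 4452) were higher by this rule and 372 (8.36%) lower. At 21 dpi 166 (3.86% of 4302) were higher and 307 (7.14%) lower. The median log2 ratio of all genes was -0.04 in both sorts at 7 dpi and -0.19 and -0.13 at 21 dpi. With TMM factors of edgeR it was 0.25 and 0.18, then 0.27 and 0.21, and the split became 485 higher and 263 lower at 7 dpi and 431 and 158 at 21 dpi, with 568 of the 677 and 324 of the 473 genes called on both scales. The ratios that follow are on the CPM scale and are to be read against these medians, and each at 21 dpi in Gli1- sets female against male cells. A ratio over 1 to 3 uninjured UMIs is followed by its 95% counting interval. The uninjured side rests on 151 and 30 cells, from libraries where Scx was no more frequent in Ly6a cells than in endothelial cells at equal depth. Without the deepest uninjured Gli1- cell 303 genes were higher and 385 lower at 7 dpi, and 174 and 315 at 21 dpi. In a check added after the data were seen, the uninjured cell of each sort with most UMIs of a gene was left out for that gene. Of the genes of the lists and those named here, the 42 and 45 higher ones at 7 and 21 dpi kept a log2 ratio past 1 in both sorts, which this removal favours. Of the lower ones 34 of 47 and 37 of 47 did. The bar of 50 CPM was not applied again in this check. A gene counted as kept can thus lie below that bar, as Bglap and Cyfip2 do.

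Tendon genes were mostly lower at 7 dpi and less so at 21 dpi. Of 12, 7 were lower at 7 dpi (Thbs4 lost its call without 1 uninjured Gli1- cell) and 1 was higher (median -1.72 in Gli1+ and -1.52 in Gli1-, against -0.04 for all genes), while at 21 dpi 3 were lower and 1 higher (median -0.49 in Gli1+ and -0.10 in Gli1-). Fmod had log2 ratios of -3.0 in Gli1+ and -2.20 in Gli1- at 7 dpi and -1.07 in Gli1+ and -0.15 in Gli1- at 21 dpi. Chad, a leucine-rich matrix protein of tendon and cartilage, stayed lower, with -6.09 in Gli1+ and -5.86 in Gli1- at 7 dpi and -3.46 in Gli1+ and -2.91 in Gli1- at 21 dpi, its levels being 905, 13.3 and 82.0 CPM across the Gli1+ and 616, 10.6 and 82.2 CPM across the Gli1- libraries. Comp had -3.10 in Gli1+ and -2.94 in Gli1- at 7 dpi and Mkx -2.30 in Gli1+ and -1.89 in Gli1-. Tnmd moved less, with -1.06 in Gli1+ and -0.18 in Gli1- at 7 dpi and 0.77 in Gli1+ and 1.30 in Gli1- at 21 dpi. Tenascin-C (Tnc), the matrix protein of wounds, was the 1 gene of the list higher at both times, at 183, 2052 and 994 CPM across the Gli1+ and 244, 2426 and 1047 CPM across the Gli1- libraries. In endothelial cells, which should lack Tnmd, a UMI of it was found in 1.69% to 9.13% at 5000 UMIs, against 47.2%, 35.1% and 61.1% (Gli1+) and 26.3%, 31.2% and 54.4% (Gli1-) of Ly6a+Scx+ cells.

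Wound repair genes were the list with most genes higher at both times, 11 of 17 and none lower (median 3.13 in Gli1+ and 1.45 in Gli1- at 7 dpi and 3.28 in Gli1+ and 1.24 in Gli1- at 21 dpi). Periostin (Postn) was at 179, 3302 and 1739.7 CPM across the Gli1+ and 714, 4185 and 1689 CPM across the Gli1- libraries in Ly6a+Scx+ cells, a log2 ratio of 4.2 in Gli1+ and 2.55 in Gli1- at 7 dpi. A UMI of Postn was found at 5000 UMIs in 9.72%, 97.4% and 85.6% (Gli1+) and 21.1%, 97.2% and 88.0% (Gli1-) of Ly6a+Scx+ and in 10.05%, 87.8% and 32.9% (Gli1+) and 6.49%, 87.1% and 36.7% (Gli1-) of endothelial cells, so that at 7 dpi most cells of either kind held it. Acta2 had 4.15 in Gli1+ and 2.81 in Gli1- at 7 dpi and 3.49 in Gli1+ and 1.73 in Gli1- at 21 dpi, and Timp1, an inhibitor of metalloproteinases, 3.27 in Gli1+ and 2.41 in Gli1- and 3.32 in Gli1+ and 2.53 in Gli1-. Acan had log2 ratios of 6.60 in Gli1+ and 5.21 (3.36 to 8.25) in Gli1- at 7 dpi and 6.98 in Gli1+ and 5.20 (3.34 to 8.24) in Gli1- at 21 dpi. Sox9 was higher at both times (1.32 in Gli1+ and 1.97 in Gli1- at 7 dpi). The collagenases parted by time: Mmp13 was at 6.79, 91.3 and 1153 CPM across the Gli1+ and 17.9, 70.4 and 1525 CPM across the Gli1- libraries, and the stromelysin Mmp3 at 24.0, 210.3 and 1285 CPM across the Gli1+ and 29.8, 190.0 and 1702 CPM across the Gli1- libraries, so that both were higher at 21 than at 7 dpi in either sort. Of the collagens, Col3a1 was higher (2.76 in Gli1+ and 1.32 in Gli1- at 7 dpi), as were Col5a2 (1.49 in Gli1+ and 1.27 in Gli1-) and the collagen chaperone Serpinh1 (2.14 in Gli1+ and 1.11 in Gli1-), and decorin (Dcn) was lower (-2.87 in Gli1+ and -1.99 in Gli1-). Col1a1 was not called, with 1.63 in Gli1+ and 0.02 in Gli1- at 7 dpi, and the uninjured Gli1- value of Col1a1 was 17817 CPM with and 7941 CPM without the deepest cell.

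Among inflammatory genes 7 of 16 were higher and 2 lower at 7 dpi, and 6 of 15 higher and 2 lower at 21 dpi. Saa3 was at 8.15, 445 and 4591 CPM across the Gli1+ and 2.98, 358 and 5264 CPM across the Gli1- libraries and had log2 ratios of 5.77 in Gli1+ and 6.91 (4.43 to 12.21) in Gli1- at 7 dpi and 9.14 in Gli1+ and 10.79 (8.31 to 16.09) in Gli1- at 21 dpi. Ccl2, the monocyte chemokine, was at 87.9, 998 and 218 CPM across the Gli1+ and 176, 981 and 250.1 CPM across the Gli1- libraries and thus highest at 7 dpi. Ptgs2 (COX-2) followed Ccl2, at 40.8, 319.9 and 114 CPM across the Gli1+ and 56.6, 316 and 125 CPM across the Gli1- libraries. C3 (-1.82 in Gli1+ and -1.33 in Gli1-) and C4b (-1.49 in Gli1+ and -1.42 in Gli1-) were lower at 7 dpi, but 1 of the 30 uninjured Gli1- cells held 76 of 154 UMIs of C3 and 18 of 39 of C4b. Without it the Gli1- ratios were -0.42 and -0.60 and both calls were lost. Sheath markers were lower or not called: at 7 dpi 5 of 13 were lower and none higher, among them Cd34 (-1.63 in Gli1+ and -1.20 in Gli1-), Tppp3 (-1.52 in Gli1+ and -1.71 in Gli1-) and Prg4 (-3.85 in Gli1+ and -1.58 in Gli1-). At 21 dpi 4 were lower and Pi16 was the 1 higher (1.18 in Gli1+ and 1.40 in Gli1-). Without the uninjured Gli1- cell holding most UMIs of the gene, Cd34, Dpp4 and Ly6c1 lost their calls at 7 dpi and Cd34 and Dpp4 at 21 dpi. Growth and imprinted genes were higher at 7 dpi in 5 of 9, none lower, namely pleiotrophin Ptn (1.68 in Gli1+ and 3.12 in Gli1-), midkine Mdk (4.32 in Gli1+ and 3.89 in Gli1-), H19, Mest (4.58 in Gli1+ and 3.50 in Gli1-) and Plagl1 (1.54 in Gli1+ and 2.54 in Gli1-). At 21 dpi Mdk (4.86 in Gli1+ and 4.02 in Gli1-) and Mest (2.21 in Gli1+ and 1.13 in Gli1-) remained so by the same rule. None of 4 tested hedgehog genes was called at either time. Of 13 Gs, PKA and CREB genes the phosphodiesterase Pde4d was higher at 7 dpi (1.32 in Gli1+ and 1.5 in Gli1-) and at 21 dpi (1.74 in Gli1+ and 2.04 in Gli1-), and Akap12 and Creb1 were lower at 21 dpi, calls that both lost without 1 uninjured cell. Over all genes 6.85% were higher at 7 dpi and 3.86% at 21 dpi, and 7.14% lower at 21 dpi, so 1 of 13 higher at 7 dpi is near the background. Bmp2 (-3.30 in Gli1+ and -3.43 in Gli1-), Bmp4 (-3.50 in Gli1+ and -3.48 in Gli1-), Id3 and Tgfbr1 were lower and Tgfb2 (1.17 in Gli1+ and 1.40 in Gli1-) higher at 7 dpi.

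**Figure D5:**
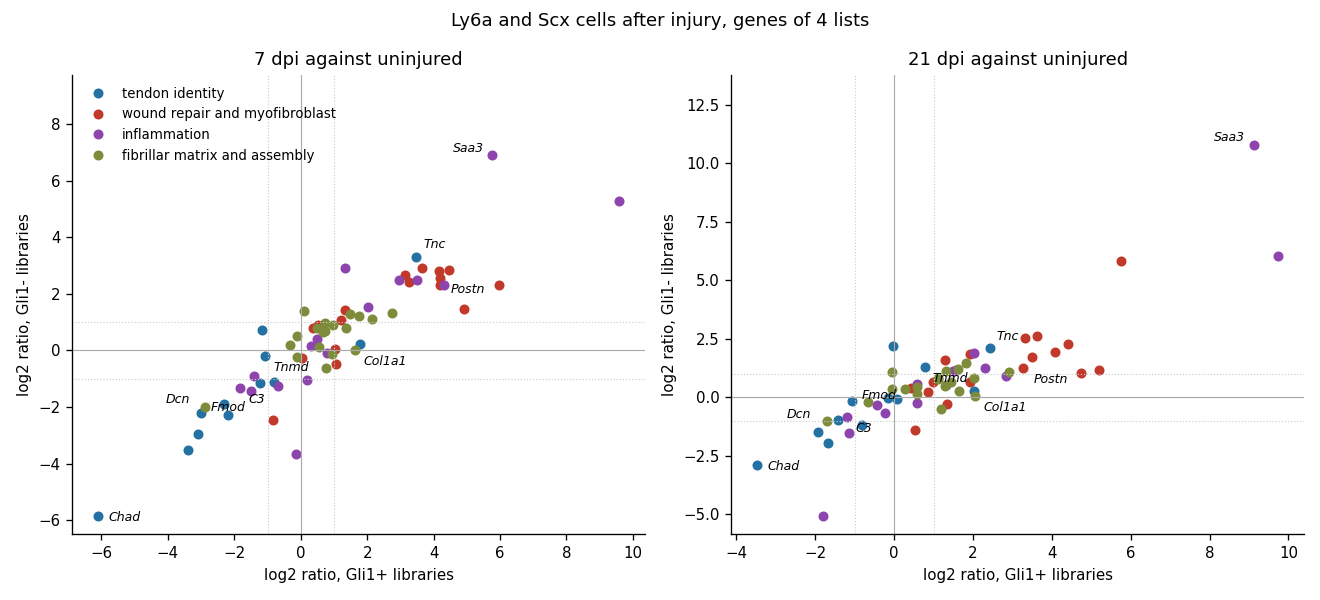
Log2 ratio of CPM in Ly6a+Scx+ cells over the uninjured library of the same sort, Gli1+ on the x axis and Gli1- on the y axis, for genes of 4 lists at 7 dpi and 21 dpi, with dotted lines at 1 and -1. Tendon identity genes lie mostly at lower left at 7 dpi (Chad at -6.09 and -5.86) and wound repair genes at upper right (Postn at 4.2 and 2.55).

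The genes furthest from 0 by the smaller of their 2 ratios were led upward at 7 dpi by Saa3, the neutrophil chemokines Cxcl5 and Cxcl2, Acan, the fatty acid binding protein Fabp5, C1qtnf3, Brinp3, Mdk, haptoglobin Hp and the metalloproteinase Adam12. Fabp5, which is also an epidermal gene, was at 34.0, 2837 and 539.7 CPM across the Gli1+ and 38.7, 1365 and 200.1 CPM across the Gli1- libraries in Ly6a+Scx+ cells. It was higher in Gli1+ than in Gli1- at both injured times but not in the uninjured pair. Epidermal transcripts were higher in Gli1+ in the uninjured pair too, and their part in Fabp5 was not tested. C1qtnf3 had 5.11 in Gli1+ and 4.17 in Gli1-, Adam12 4.29 in Gli1+ and 3.76 in Gli1-, and Cxcl5 9.57 (7.09 to 14.88) in Gli1+ and at least 5.27 in Gli1-. At 21 dpi Slpi, a protease inhibitor, was at 42.6, 485 and 2130.3 CPM across the Gli1+ and 2.98, 514 and 1503 CPM across the Gli1- libraries and Ctla2a at 7.70, 69.2 and 815 CPM across the Gli1+ and 50.6, 74.3 and 834 CPM across the Gli1- libraries. Among those lower at 7 dpi were the leptin receptor Lepr, Chad, Fgf9, Bglap, Galnt15, myocilin Myoc, the Wnt inhibitor Wif1, Angptl7 and the methyltransferase Inmt. Myoc was at 2725, 20.8 and 68.8 CPM across the Gli1+ and 1015, 26.2 and 80.8 CPM across the Gli1- libraries and Angptl7 at 2666, 30.4 and 214 CPM across the Gli1+ and 706, 22.9 and 139 CPM across the Gli1- libraries, low in all 4 injured libraries. Wif1 and Lepr rest on few uninjured Gli1- cells, 69 of 72 UMIs of Wif1 and 52 of 71 of Lepr lying in 1 cell each. Without its 1 cell Wif1 had a ratio of -0.33 in Gli1- at 21 dpi and lost its call. Without the deepest cell Bglap still had -2.96 in Gli1- at 7 dpi. It lost its call because no level then reached 50 CPM, the uninjured ones being 21.7 CPM in Gli1+ and 13.5 CPM in Gli1-. At 21 dpi the lower genes were Lepr, Cntn5, complement C7, Wif1, Col22a1, Abca8a, the Y-linked Ddx3y, Ppl, Kirrel3 and Cyfip2. Ddx3y (44.8, 71.2 and 2.67 CPM across the Gli1+ and 158, 68.1 and 2.11 CPM across the Gli1- libraries) and Cntn5 (11.8, 119.7 and 0.165 CPM across the Gli1+ and 339, 148 and 0.211 CPM across the Gli1- libraries) are near 0 in the female 21 dpi libraries. All 18 uninjured Gli1- UMIs of Cyfip2 lay in the deepest cell. Without that cell Cyfip2 had -4.59 in Gli1- at 21 dpi, from the floor of 3 counts. It lost its call because no level then reached 50 CPM. Col22a1 lost its call with doublets removed.

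Between the sorts, Gli1+ and Gli1- Ly6a+Scx+ cells differed in few genes. In a paired test over the 3 time points, 45 genes (0.294% of 15284) were higher and 12 (0.0785%) lower in Gli1+. The uninjured pair set 151 cells of both sexes against 30 male cells and is not shown to come from the same mice. Sort and sex cannot be told apart in that pair. Without it 100 genes were called higher and 50 lower. None of the genes of the 12 pathway lists was called. Of the genes named by size, the epidermal keratin Krt1 and Mt4 were higher in Gli1+, and 202 of 283 UMIs of Mt4 in the uninjured Gli1+ library lay in 1 cell. All 8 epidermal markers were higher in Gli1+ in 3 of 3 pairs. All 8 endothelial markers were lower in 3 of 3, with Pecam1, Emcn and Flt1 called. Cd74 of the immune list was called higher. The growth factor Nrg1 was at 21.7, 151 and 81.8 CPM across the Gli1+ and 11.9, 55.6 and 36.6 CPM across the Gli1- libraries in Ly6a+Scx+ cells, a log2 difference of 1.30 ± 0.13 (adjusted p = 0.029), with 45 of 48 UMIs of the uninjured Gli1+ library in 1 cell. Without that cell the uninjured Gli1+ level was 1.40 CPM, below the Gli1- level, and without cells holding markers of other types the difference turned to -0.45. Abca8a was at 117, 10.9 and 6.75 CPM across the Gli1+ and 405, 21.8 and 17.2 CPM across the Gli1- libraries and lower in Gli1+, with a log2 difference of -1.34 ± 0.16 (adjusted p = 0.041), in 3 of 3 pairs. Tnmd (0.23), Fmod (0.42) and Pi16 (-0.15) did not pass. With cells holding 5 or more UMIs of epidermal, mural, Schwann or muscle markers left out, no Ly6a+Scx+ cell remained in Gli1+ at 7 dpi, and over the remaining 2 pairs 2 genes were higher and 27 lower. Whether the difference of Ly6a+Scx+ from Scx-only cells depended on the sort was asked with an interaction term, and 0 of 15722 genes passed (431 at an unadjusted p below 0.05).

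Cell cycle genes were found mainly at 7 dpi. At least 2 of 6 cycle genes were detected in 1.39%, 13.9% and 1.95% (Gli1+) and 0%, 10.5% and 1.97% (Gli1-) of Ly6a+Scx+ cells at 5000 UMIs, the 7 dpi libraries being highest. In Ly6a-only cells the shares were 0.613%, 14.2% and 3.55% (Gli1+) and 0.137%, 6.94% and 1.58% (Gli1-), in Scx-only cells 1.21%, 9.20% and 1.9% (Gli1+) and 0%, 10.2% and 1.93% (Gli1-) and in endothelial cells 1.37%, 8.16% and 7.10% (Gli1+) and 0.390%, 17.2% and 8.78% (Gli1-). The 7 dpi libraries were thus highest in these cells too. None of 13 cycle genes was called between classes over 6 libraries (medians 0.67 and 0.44) or between sorts. The uninjured Gli1+ level of Mki67 (152 CPM) came mostly from 1 cell, with 172 of 336 UMIs. Markers of other cells summed in Ly6a+Scx+ cells to 2.98 to 62.6 CPM for immune cells, 26.4 to 211 CPM for endothelium, 71.4 to 191 CPM for mural cells, 11.7 to 35.7 CPM for Schwann cells, 12.7 to 298 CPM for adipocytes and 0.741 to 125 CPM for red cells. Mural genes were called below both classes over 6 libraries, 5 of 8 against Scx-only and 6 of 8 against Ly6a-only cells, with 1 of 8 called above the latter, and none was called over 3 pools. Dissociation and stress genes such as Fos and Jun summed to 15323, 9609.9 and 12398 (Gli1+) and 20942, 9576 and 11332 (Gli1-) CPM in Ly6a+Scx+ cells, 27375, 13420.1 and 16243 (Gli1+) and 28574, 12891 and 14045 (Gli1-) CPM in Scx-only and 19035, 10656 and 13445 (Gli1+) and 25540.2, 12483 and 12873 (Gli1-) CPM in Ly6a-only cells, the lowest of the 3 classes in 6 of 6 libraries. None of 9 was called in either test, while 5 were lower than in Scx-only and 7 lower than in Ly6a-only cells in every library (medians -0.36 and -0.30 over 6 libraries). Their part in the class differences was not tested.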

How the data were processed

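Droplet libraries (10x Chromium, 3' chemistry) were deposited by the authors as matrices of raw UMI counts per gene and barcode for 33696 genes. The submitters' processing notes name Cell Ranger 3.1.0, STAR and mm10, while the matrix headers name Cell Ranger 9.0.0, so no coordinates are given. tdTomato is not among the features. The members and gene lists were chosen with earlier results of these data known.

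Counts were filtered by barcode, the rule was applied to raw counts, and UMIs were summed per class and library. Sums were tested with edgeR 4.0.16 in R 4.3.3 (quasi-likelihood, TMM, low-count filter, Benjamini-Hochberg), on 9 sums with the 3 time points as blocks or 18 sums with the 6 libraries as blocks. The sorts were paired by time point because the labels give both sorts of a time point as 1 pool of mice, which the sex-linked transcripts do not bear out for the uninjured pair. The 21 lists held 251 genes, of which 1 whose symbol has a pair of identifiers was left out. Doublets were marked with Scrublet (scanpy 1.11.5) at 0.8% per 1000 cells and kept in the main results. A fold against a library at 0 used a floor of 3 counts. Named genes were those of the lists plus up to 10 a direction per comparison, called, in the same direction in every library (over time, ranked by the smaller of both sorts) and at 50 CPM or more, without the genes of the rule and mitochondrial, ribosomal, Gm and Rik genes. DESeq2 1.42.0, other filters, depths and gates, and leaving out each time point, were alternatives. A few genes that met this rule or belong to a list are not reported here. The tests were run on simulated counts first.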

Additional observations from a re-analysis of the deposited data

How the results depend on the processing

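Counts of genes called between classes depended on the settings more than their directions did. Of 960 values of single genes recomputed under alternatives, 786 kept their direction and side of the threshold, 173 kept the direction but no longer passed and 1 turned, the sort difference of Nrg1, which became -0.45 without cells holding markers of other types. Against Scx-only cells, 29 genes became 624 with DESeq2, 109 with no filter on low counts, 966 over 6 libraries, 9 with the rule on cells thinned to 5000 UMIs, 58 without cells holding markers of other types, 6 with Scx at 2 or more, 97 with Ly6a at 5 or more, 73 in Gli1+ and 50 in Gli1- libraries alone, and 0 to 540 when a time point was left out. Thinning turned the split from 3 higher and 26 lower to 7 and 2. Against Ly6a-only cells, 63 genes became 749 with DESeq2, 211 with no filter, 1436 over 6 libraries, 109 with doublets removed, 559 without cells holding markers of other types, 417 with Scx at 2 or more, 8 in Gli1+ and 828 in Gli1- libraries alone, and 0 to 1140 when a time point was left out. Between sorts, 57 genes became 193 with DESeq2, 611 with no filter, 92 in cells of 5000 to 15000 UMIs, 29 without cells holding markers of other types and 114 to 412 when a time point was left out. Settings chosen after the data were seen gave, over 6 libraries and against Scx-only and Ly6a-only cells, 399 and 933 with thinned cells, 694 and 1240 in cells of 5000 to 15000 UMIs, 899 and 1574 with doublets removed, and 883 and 1787 without the uninjured libraries. Without the uninjured Gli1- library the 3 pools gave 122 and 175. Genes called over 3 pools kept their sign under each setting that could test them, but fewer passed: of the 29 and 63, 5 and 35 were called the same way on thinned cells, 6 and 63 with Scx at 2 or more, and 13 and 45 in cells of 5000 to 15000 UMIs. Leaving out cells with markers of other types removed nearly the whole library of Gli1+ at 7 dpi. It left 0 Ly6a+Scx+, 2 Scx-only and 36 Ly6a-only cells there, so the counts under that setting also reflect the loss of this library. The causes of the shifts between settings were not tested.

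The block matters in each test. With no replicate block, so that pairing by pool was ignored, 0 genes were called against either class (870 and 791 at an unadjusted p below 0.05) and 0 between sorts (450).

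The share of Ly6a+Scx+ cells moved with the definition. It was 1.13, 7.25 and 8.47% across the Gli1+ and 0.355, 6.56 and 6.49% across the Gli1- libraries in cells thinned to 5000 UMIs, 0.354, 1.53 and 2.04% across the Gli1+ and 0.0290, 1.40 and 1.74% across the Gli1- libraries at 2000 UMIs, and 5.59, 16 and 16.2% across the Gli1+ and 0.418, 17.2 and 14.1% across the Gli1- libraries as a share of cells that met the bars. As a share of cells with Scx that met the bars it was 31.1, 65.9 and 66.6% across the Gli1+ and 26.8, 84.7 and 75.8% across the Gli1- libraries. With Scx at 2 or more it was 1.08, 7.41 and 8.57% across the Gli1+ and 0.0991, 6.92 and 5.47% across the Gli1- libraries, and with Ly6a at 5 or more 1.5, 9.45 and 10.5% across the Gli1+ and 0.157, 9.84 and 7.71% across the Gli1- libraries. With doublets removed it was 14.4% at 7 dpi and 14.4% at 21 dpi in Gli1+. With a floor of 10 CPM, 1370 genes passed the time rule at 7 dpi and 1197 at 21 dpi. The uninjured libraries, with 151 and 30 Ly6a+Scx+ cells, limit every ratio over time.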
